A study of Mus musculus with 12 samples.

Results

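The transcript levels of 10 genes of the adherens junction were examined in mouse hepatocytes, out of 52636 genes in the deposited table. The genes are Cdh1, Cdh2, Ctnnb1, Jup, Ctnna1, Ctnnd1, Pkp4, Afdn, Pard3 and Tjp1. They were chosen by name, as cadherins, catenins and junction proteins known as partners or substrates of the receptor-type tyrosine phosphatase Ptprk, so the rule itself uses no measured value, although the set was put together with earlier results of these libraries known. All 10 were present in the table, and all 10 passed the filter on low values that left 16563 genes for testing.

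The study asked how loss of Ptprk affects hepatocytes of fatty livers. The 12 libraries came from 6 mice, of which 3 were wild type (WT) and 3 carried a knockout of Ptprk (KO). Each mouse gave 1 library of hepatocytes with low fat content and 1 of hepatocytes with high fat content, which makes 4 groups of 3 libraries, low-fat and high-fat of either genotype. All groups share the steatotic liver as their source, and the fractions were separated by Percoll gradient and differential centrifugation of the liver cell suspension. The labels used here do not give the knockout allele, the strain, the age or the diet. Both fractions of a mouse come from the same liver, whereas replicates with the same number in WT and KO are different mice.

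Adherens junctions hold neighbouring epithelial cells together. Cadherins span the membrane and bind each other across the gap between cells, while their tails bind catenins, which link them to the actin cytoskeleton and control how long the cadherin stays at the surface. In the liver, hepatocytes carry both E-cadherin and N-cadherin, and E-cadherin is known to be strongest in hepatocytes around the portal vein. Ptprk itself is a cell adhesion receptor that binds its own kind on the next cell, and its phosphatase domain acts on phosphorylated junction proteins. The measurements here are of RNA and not of protein, phosphorylation or place in the cell.

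Values are reads per 20 M (mega), that is, gene read counts that the authors scaled to the same total in every library. Estimated depth was lowest for KO high-fat replicate 3 (15.1 M reads) and highest for WT low-fat replicate 1 (25.0 M). A floor of 3 reads corresponds to 2.40 to 3.98 reads per 20 M, and intervals from reads cover counting error only. The lowest member value, 740 for Cdh1 in WT high-fat replicate 2, rests on an estimated 681 reads with a counting error of 3.83%. Depth therefore did not limit any of the 10 genes. Transcripts of Ptprk itself were 2758, 2883 and 2724 in WT low-fat and 1117, 1364 and 1333 in KO low-fat. They were 2174, 2578 and 2469 in WT high-fat and 1217, 1204 and 1179 in KO high-fat. The KO level was thus 45.8% of WT in low-fat libraries (limma, 95% interval 39.8 to 52.7%, adjusted p = 0.000982) and 50.8% in high-fat libraries (44.2 to 58.5%, adjusted p = 0.00448), so the knockout libraries still contained reads of the targeted gene. The high-fat call was lost without KO high-fat replicate 1 (adjusted p = 0.0777) or when only the high-fat libraries were fitted (0.469).

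The libraries were those of hepatocytes, with differences between the fractions in RNA of other liver cells. The 10 hepatocyte markers summed to between 762329 and 932633 reads per 20 M over all libraries. The 11 sinusoidal endothelial markers summed to between 1515 and 3752 in low-fat and between 5838 and 17501 in high-fat libraries. The 12 stellate cell and fibroblast markers summed to between 166 and 791 and between 2434 and 4220, and the 11 Kupffer cell and macrophage markers to between 505 and 1569 and between 2325 and 12590. All 12 stellate, all 11 endothelial and 8 of 11 Kupffer cell markers passed as higher in the high-fat fraction, against 4.99% of all genes. This was over both genotypes, in the fit without the mouse as a block. In WT alone none of these markers passed that fit, against 0.0% of all genes. In KO alone 10 stellate, 6 endothelial and 1 Kupffer cell marker passed it as higher, against 0.851% of all genes. With the mouse as a block, 9 stellate, 2 endothelial and 0 Kupffer cell markers passed as higher in WT, against 0.7% of all genes. In KO these numbers were 12, 8 and 1, against 1.71% of all genes. Cholangiocyte markers summed to between 968 and 1366, and none of the markers of these lists was at 0 in all libraries. The part of these other cells in the differences below was not tested, and in such bulk libraries fewer cells of a type cannot be told apart from less RNA per cell.

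Promoters are shown for Jup and Pkp4, because these genes passed the test between the fractions with the mouse as a block and have an entry in the sequence table. The sequences are the 150 bases just before the annotated start, 5′ to 3′ on the strand of the gene, from RefSeq with build GRCm38.p6. Of the 10 members, 7 had a promoter window here, and Cdh1, Cdh2 and Ctnna1 did not. Entries of a single chromosome were left out when the windows were taken, so a missing window need not mean a missing entry. Capitals mark the E-box CACCTG or its reverse complement CAGGTG, the motif known to be bound by repressors of the Snail and Zeb families. Jup lies on the minus strand, and its window is chr11:100397791-100397940. Pkp4 lies on the plus strand with a first start at chr2:59160700-59160849 and a second at chr2:59161719-59161868.
Jup: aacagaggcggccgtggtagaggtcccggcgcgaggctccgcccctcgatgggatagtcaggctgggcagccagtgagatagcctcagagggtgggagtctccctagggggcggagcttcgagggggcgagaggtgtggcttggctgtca
Pkp4 first start: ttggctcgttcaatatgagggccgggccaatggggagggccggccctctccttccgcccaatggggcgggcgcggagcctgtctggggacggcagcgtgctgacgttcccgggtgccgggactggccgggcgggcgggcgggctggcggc
Pkp4 second start: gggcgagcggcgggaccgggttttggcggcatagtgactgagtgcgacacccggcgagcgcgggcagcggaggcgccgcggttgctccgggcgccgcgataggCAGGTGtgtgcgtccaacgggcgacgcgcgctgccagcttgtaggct
The window of Jup held no match to CACCTG on either strand and 10 CpG dinucleotides, a number that 28.8% of all windows of this length reached. That of the first Pkp4 start also held no match, with 17 CpG dinucleotides. Before the second Pkp4 start there was 1 match, beginning 47 bases before the start at position -47, and 24 CpG dinucleotides, which only 2.6% of windows reached. Of 32851 promoter windows of the same length, 3483 (10.6%) held CACCTG on either strand, so the match in Pkp4 is a description of the sequence and not of a bound site.

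Per kilobase of exon, the 10 genes covered less than 1 order of magnitude. Ctnnb1, which encodes beta-catenin, the link between cadherin tails and alpha-catenin and also the effector of Wnt signalling, stood highest at 1142 ± 72.2 reads per 20 M per kb (SD, 12 libraries). It was followed by Ctnnd1 at 547, Ctnna1 at 477, Pkp4 at 450, Cdh1 at 391 and Cdh2 at 341. Jup stood at 231, Afdn at 219, Tjp1 at 185 and Pard3 at 176. Ctnnb1 was the highest and Ctnnd1, Ctnna1 and Pkp4 were above Cdh2, Jup, Afdn, Tjp1 and Pard3 in the means of all 4 groups. Within WT low-fat libraries the ranges of Ctnna1 and Cdh1, of Cdh1 and Pkp4, of Jup and Afdn, and of Tjp1 and Pard3 overlapped, so the order of those neighbours was not resolved.

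Cdh1 was the exception to an otherwise steady set. Its highest library (KO low-fat replicate 1) was 5.15 times its lowest, whereas the highest and lowest libraries of the other 9 genes differed by between 1.12 and 1.48 times. By mean level per kb, Cdh1 was the fourth of the 10 in WT low-fat and the second in KO low-fat libraries, but the sixth in both high-fat groups. Its KO low-fat range, 334.1 to 833.0 per kb, covered the ranges of Ctnnd1, Pkp4 and Ctnna1. In both high-fat groups its range overlapped those of Cdh2, Jup and Afdn, so these ranks were not resolved. The within-group SD of Cdh1 was 0.679 on the log2 scale. Only 3.06% of the 10517 genes whose mean reached 100 reads per 20 M had a larger one. The other 9 members had within-group SDs from 0.071 for Pkp4 to 0.135 for Jup, below those of most such genes.

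**Figure D1:**
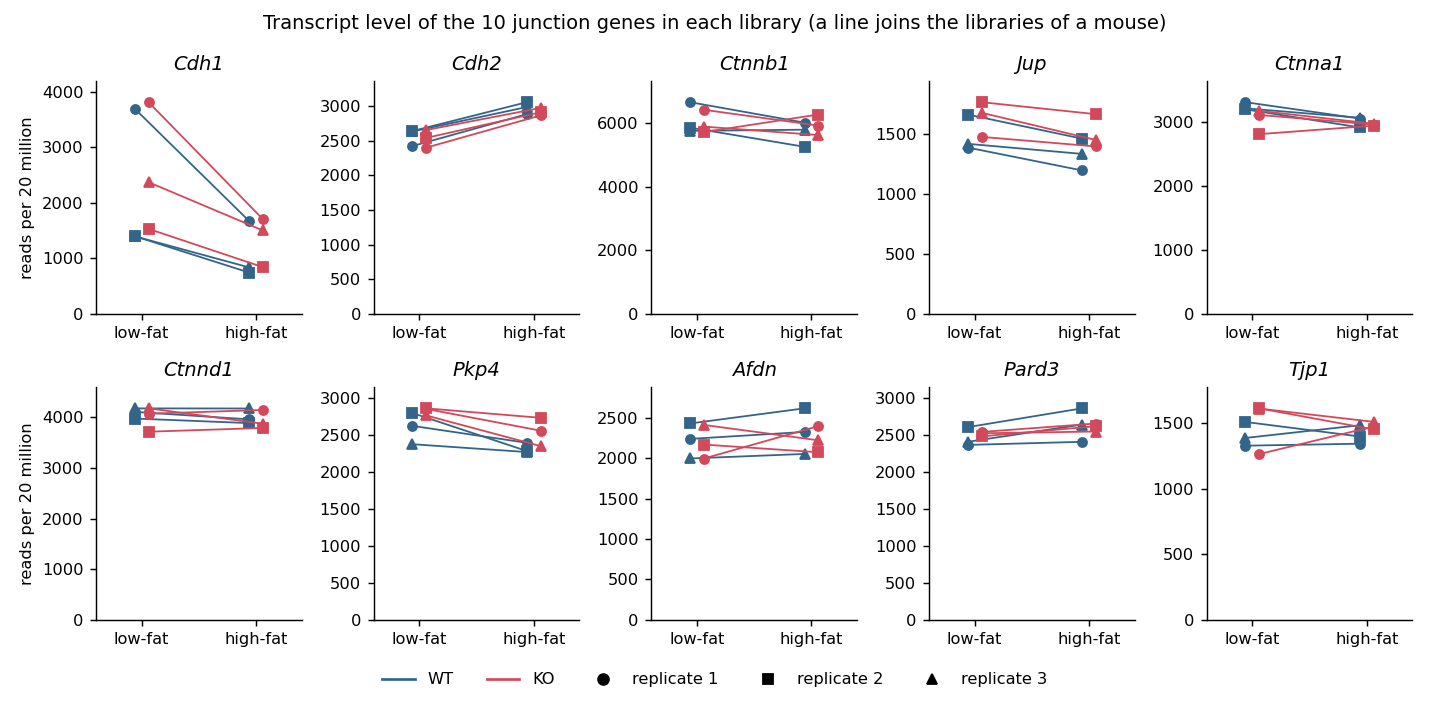
Level of each of the 10 junction genes in reads per 20 M (vertical axis, from 0) in the low-fat and high-fat library of each mouse. Blue marks WT and red KO, the symbol shape marks the replicate, and a line joins the libraries of a mouse. Cdh1 is lower in the high-fat library in all 6 mice and varies between mice, while the other genes stay within a narrow band.

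Cdh1 was lower in high-fat than in low-fat cells of all 6 mice and passed the test with the mouse as a block, while Cdh2 did not pass. Cdh1 (ENSMUSG00000000303) encodes E-cadherin, the main epithelial cadherin. In WT replicates 1 to 3 it measured 3692, 1396 and 1393 reads per 20 M in low-fat cells and 1668, 740 and 833 in high-fat cells. In KO replicates 1 to 3 it measured 3810, 1528 and 2369 in low-fat cells and 1702, 838 and 1499 in high-fat cells. In every mouse the high-fat library held the lower value, yet the ranges of the fractions overlapped because mice differed so much. The high-fat level was 45.2, 53.0 and 59.8% of the low-fat level in the WT mice and 44.7, 54.8 and 63.3% in the KO mice.

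With the mouse as a block in limma, Cdh1 fell to 50.4% of its low-fat level over both genotypes (95% interval 43.1 to 58.9%), a log2 change of -0.989 with SE 0.0984 and adjusted p = 0.00271. The fit without the block had the same log2 change with SE 0.329 and adjusted p = 0.119. Within WT the log2 change was -1.01 (adjusted p = 0.0479 with and 0.435 without the block), and within KO it was -0.965 (0.0235 and 0.617). The call in WT was lost when any of the 3 WT mice was left out, with adjusted p from 0.0979 to 0.394, and the call in KO was lost without KO replicate 3 (0.0532). With the block and rescaling by median of ratios instead, the call in WT was also lost, while that in KO held (adjusted p = 0.028). Both calls held with the block on the deposited scaling. Over both genotypes the call held when any of the 6 mice was left out, with adjusted p from 0.000134 to 0.0219. A two-sided exact sign-flip test over the 6 mice gave p = 0.03125 for Cdh1, the smallest value it can give. Of all 16563 genes tested, 221 (1.33%) had a log2 change below -0.5 in this comparison.

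Cdh2 (ENSMUSG00000024304) encodes N-cadherin, the other classical cadherin of hepatocytes. In WT mice it measured 2426, 2643 and 2637 in low-fat and 2888, 3061 and 2991 in high-fat libraries. In KO mice it measured 2403, 2544 and 2658 in low-fat and 2869, 2915 and 2978 in high-fat libraries. On these deposited values all 6 high-fat libraries lay above all 6 low-fat libraries. After rescaling between libraries the log2 difference was 0.135 (SE 0.0610) with adjusted p = 0.259, and 0.120 with the mouse as a block, so Cdh2 did not pass. It passed when the deposited scaling was used alone (log2 difference 0.21, adjusted p = 0.0267), so the call depended on the scaling. The direction was up in 6 of 6 mice under both scalings.

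The balance of the cadherins differed between the fractions of every mouse. Per kb of exon, Cdh1 made up 72.9, 48.2 and 48.2% of the sum of Cdh1 and Cdh2 in WT low-fat and 50.5, 29.9 and 32.9% in WT high-fat libraries. In KO mice it made up 73.7, 51.4 and 61.1% in low-fat and 51.1, 33.6 and 47.0% in high-fat libraries. Cdh1 was the more abundant of the pair in replicate 1 of all 4 groups. In high-fat replicates 2 and 3 of both genotypes Cdh2 was the more abundant.

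**Figure D2:**
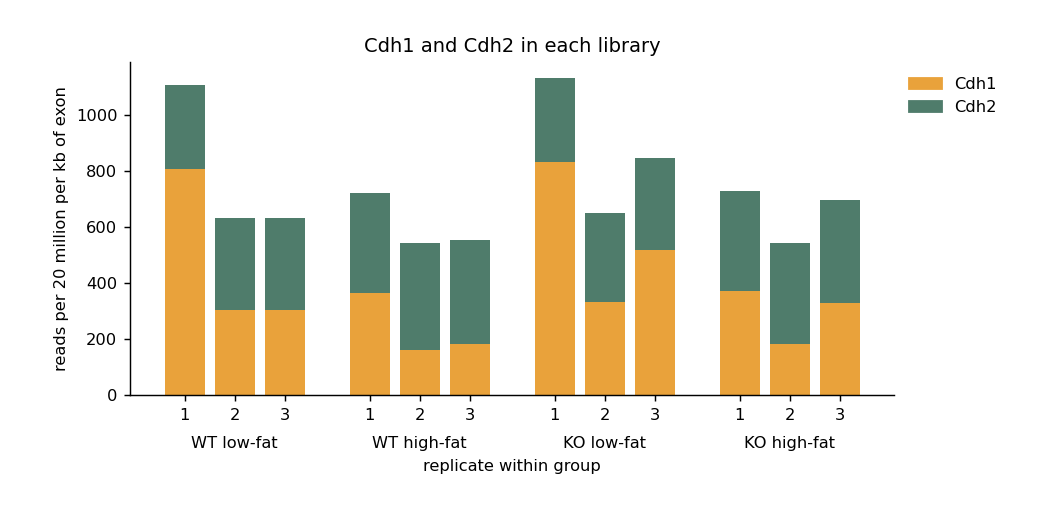
Cdh1 (orange) and Cdh2 (green) in reads per 20 M per kb of exon (vertical axis, stacked from 0) in the 3 libraries of each group. Replicate 1 holds the most Cdh1 in each group, and the orange part is smaller in the high-fat library of each mouse.

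The replicate 1 mice had the highest Cdh1 level of their group in both fractions. Relative to its group mean on the log2 scale, replicate 1 lay above by 0.95 in WT low-fat, 0.69 in WT high-fat, 0.73 in KO low-fat and 0.31 in KO high-fat. Replicate 2 lay below the mean in all 4 groups, at -0.55, -0.46, -0.71 and -0.60 in the same order. Replicate 3 was at -0.41 and -0.23 in WT and at -0.02 and 0.29 in KO. The high-fat libraries of replicate 1 also held the highest Kupffer cell marker sums, at 12590 in WT and 10851 in KO against 2325 to 2656 in the other 4 high-fat libraries, as well as the highest sums of nuclear-retained RNAs such as Malat1 and Neat1, at 154343 in WT and 152812 in KO against 32028 to 104693. In low-fat libraries replicate 1 did not stand apart in the same way, with nuclear-retained sums of 62020 in WT and 43401 in KO against 27592 to 124202 in the others. The part of these in the Cdh1 values was not tested.

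Among the catenins that bind the cadherin tail directly, Jup passed the test between fractions with the mouse as a block and Ctnnb1 did not. Jup (ENSMUSG00000001552) encodes plakoglobin, also called gamma-catenin, which can take the place of beta-catenin and serves desmosomes too. In WT mice it measured 1384, 1659 and 1415 in low-fat and 1193, 1458 and 1331 in high-fat libraries. In KO mice it measured 1473, 1762 and 1674 in low-fat and 1393, 1662 and 1447 in high-fat libraries. In 6 of 6 mice Jup was lower in high-fat cells. It fell to 85.9% of the low-fat level with the mouse as a block (95% interval 79.1 to 93.4%, limma adjusted p = 0.0349), but did not pass without it (adjusted p = 0.151). With the block, the call also ended when single mice other than KO replicate 2 were left out, with adjusted p up to 0.164, and on the deposited scaling (0.108).

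Ctnnb1 (ENSMUSG00000006932) measured 6657, 5855 and 5755 in WT low-fat and 6014, 5253 and 5791 in WT high-fat libraries. It measured 6418, 5715 and 5887 in KO low-fat and 5921, 6269 and 5622 in KO high-fat libraries. The groups overlapped in both genotypes, and the log2 difference over both was -0.132 (SE 0.0773, limma adjusted p = 0.383). Ctnna1 (ENSMUSG00000037815), encoding alpha-catenin, the link to actin, measured 3316, 3203 and 3220 in WT low-fat and 3059, 2920 and 3071 in WT high-fat libraries. It measured 3116, 2815 and 3180 in KO low-fat and 2966, 2948 and 2978 in KO high-fat libraries. The WT fractions did not overlap while the KO fractions did, and the log2 difference of -0.145 over both genotypes did not pass (adjusted p = 0.266).

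Ctnnd1 and Pkp4 encode members of the delta-catenin family, which bind the part of the cadherin tail nearest the membrane. Ctnnd1 (ENSMUSG00000034101) measured 4110, 3978 and 4179 in WT low-fat and 3962, 3888 and 4177 in WT high-fat libraries. It measured 4074, 3718 and 4180 in KO low-fat and 4148, 3792 and 3875 in KO high-fat libraries. These ranges overlapped throughout, and the log2 difference was -0.0986 with adjusted p = 0.461. Pkp4 (ENSMUSG00000026991), encoding plakophilin 4, measured 2621, 2794 and 2373 in WT low-fat and 2392, 2281 and 2267 in WT high-fat libraries. It measured 2850, 2858 and 2762 in KO low-fat and 2556, 2730 and 2348 in KO high-fat libraries.

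Pkp4 was the member that passed the test between the fractions with and without the block. It fell to 85.1% of its low-fat level, a log2 change of -0.233 (SE 0.0567) with limma adjusted p = 0.0327, and 0.0363 with the mouse as a block. It was lower in 6 of 6 mice, by between 0.05 and 0.38 on the log2 scale. The call ended on the deposited scaling (adjusted p = 0.174) and without the filter on low values (0.0682), and the adjusted p ranged from 0.028 to 0.0878 when single libraries were left out. It stayed below 0.05 only without WT high-fat replicate 3, KO low-fat replicate 2 or KO high-fat replicate 2. Leaving out single mice under the block gave 0.0178 to 0.147, below 0.05 only without KO replicate 1 or 2.

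The scaffold and polarity genes showed no difference between the fractions that passed. Afdn encodes afadin, which joins nectins to actin, Pard3 encodes a polarity scaffold, and Tjp1 encodes ZO-1, which binds catenins as well as tight junction proteins. Afdn (ENSMUSG00000068036) measured 2237, 2428 and 1995 in WT low-fat and 2323, 2615 and 2051 in WT high-fat libraries. It measured 1994, 2167 and 2410 in KO low-fat and 2395, 2072 and 2220 in KO high-fat libraries. The fractions overlapped and the direction of its small difference turned with the scaling, from -0.03 to 0.05 on the log2 scale.

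Pard3 (ENSMUSG00000025812) measured 2362, 2602 and 2404 in WT low-fat and 2404, 2856 and 2637 in WT high-fat libraries. It measured 2537, 2477 and 2519 in KO low-fat and 2651, 2615 and 2543 in KO high-fat libraries. All 6 mice were higher in the high-fat library on the deposited scaling but only 4 of 6 after rescaling, where the log2 difference was -0.000314 (limma adjusted p = 0.999). Tjp1 (ENSMUSG00000030516) measured 1329, 1510 and 1388 in WT low-fat and 1344, 1399 and 1485 in WT high-fat libraries. It measured 1265, 1614 and 1612 in KO low-fat and 1475, 1453 and 1511 in KO high-fat libraries. Tjp1 was lower in 6 of 6 mice after rescaling, with 2 of those differences near 0, and in only 3 of 6 on the deposited scaling.

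Counted together, 1 of the 10 members (Cdh2) was higher and 4 of 10 (Cdh1, Jup, Pkp4 and Tjp1) had lower high-fat than low-fat values in all 6 mice after rescaling. Among all genes tested, 9.74% were higher and 11.7% lower in all 6 mice. A same direction in all 6 mice, either way, was found for 5 of 10 members and 21.5% of all genes. Over both genotypes, 1 of 10 members passed the adjusted test without the block, as lower. Of all genes 5.76% passed that test, 0.773% as lower. With the block 3 of 10 members passed, all as lower, against 10.5% of all genes, 3.8% as lower. In WT alone 0 of 10 passed without the block, against 0.0% of all genes, and 1 with it, against 1.02% (0.32% as lower). In KO alone 0 of 10 passed without the block, against 0.894%, and 1 with it, against 2.14% (0.429% as lower). At an unadjusted p under 0.05 without the block, 1 member was below the threshold in WT, against 11.5% of all genes, and 1 in KO, against 8.95%. With the block these were 3 of 10 in WT, against 19.2%, and 3 of 10 in KO, against 14.1%. Over both genotypes 4 of 10 were below it without the block, against 18.9%, and 5 of 10 with it, against 28.3%. After rescaling, fractions that do not overlap within WT were found for Jup, Pkp4 and Ctnna1, against 17.9% of all genes, and within KO for Pkp4 alone, against 13.5%. The median log2 change was -0.115 over the members and -0.042 over all genes tested. Over the 10 hepatocyte markers it was -0.151, with 9 of 10 below 0, as were 9 of the 10 members.

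**Figure D3:**
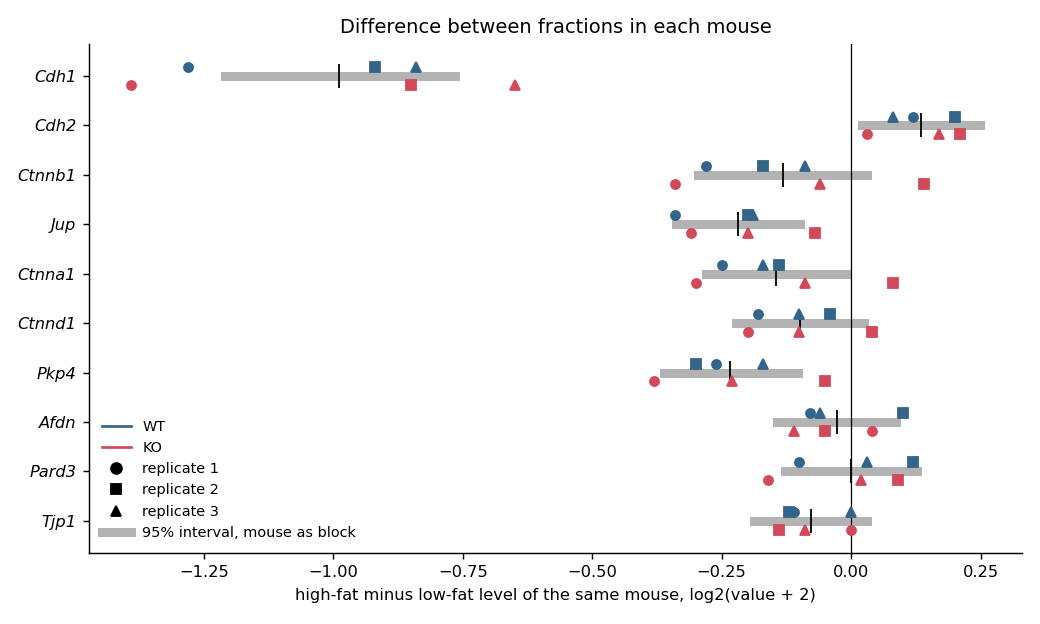
Difference between the high-fat and the low-fat library of each mouse on the log2(value + 2) scale (horizontal axis) for each of the 10 genes. Points are the 6 mice, the vertical tick is their mean and the grey bar its 95% interval with the mouse as a block. The bar of Cdh1 lies far to the left of the others, those of Jup, Pkp4 and Ctnna1 also lie below 0 (that of Ctnna1 by little), and that of Cdh2 lies just above it.

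The knockout was not accompanied by a change of any of the 10 genes that passed the test. In both fractions 0 of 10 members were called, with limma adjusted p of 1.0 for each, while 0.00604% of all genes, that is 1 gene (Ptprk), were called in each. At an unadjusted p under 0.05, 0 members passed in either fraction without the replicate block, against 1.64% of all genes in low-fat and 1.97% in high-fat libraries. The least certain member was Cdh1, whose KO level was 125% of the WT level in low-fat libraries with a 95% interval from 61.9 to 254%. In high-fat libraries it was 130% with an interval from 64 to 262%. In the fit without the block these intervals reach beyond a doubling. With the replicate number as a block they narrow to 92.6 to 170% and 95.8 to 175%. In deposited values KO was the higher in all 3 same-numbered pairs of both fractions. The high-fat replicate 1 pair was close, at 1702 in KO and 1668 in WT. Rescaling divides these by 1.0854 and 1.0591, so the order of that pair did not hold. Same-numbered mice are different mice, and the labels do not say what a number shares. Adjusted p was 1.0 either way, and without KO low-fat replicate 1 the low-fat log2 difference turned from 0.325 to -0.0409.

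The other 9 genes were bounded more narrowly. Jup was at 111% of WT (93.7 to 132%) in low-fat and at 115% (97.0 to 136%) in high-fat libraries. Pkp4 was at 110% (97.3 to 124%) and 112% (98.8 to 126%). For Cdh2 the KO level was 99.5% (87.3 to 113%) in low-fat and 99.6% (87.4 to 114%) in high-fat libraries, and for Ctnnb1 it was 99.5% (84.3 to 117%) and 106% (89.9 to 125%). Ctnna1, Ctnnd1, Afdn, Pard3 and Tjp1 had intervals that stayed between 81.7 and 124% in both fractions. A doubling lay outside the intervals of all 9, while smaller differences inside them were not detectable with 3 mice a group.

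Pkp4 was the member whose WT and KO values came nearest to separating. Its 3 KO low-fat libraries, between 2762 and 2858, lay above WT replicates 1 and 3 and overlapped WT replicate 2 at 2794 in deposited values. Among high-fat libraries KO replicate 3 at 2348 lay below WT replicate 1 at 2392. After rescaling between libraries the groups did not overlap in either fraction. Groups that do not overlap were found for 5.44% of all genes among low-fat libraries and for 4.92% among high-fat ones. Over the mean of both fractions of each mouse, Pkp4 in KO was 111% of WT (98.7 to 124%, limma adjusted p = 1.0), and a two-sided exact permutation test gave p = 0.1, the smallest that 3 against 3 mice can give. With the replicate number as a block, Jup reached an unadjusted p of 0.0222 in high-fat libraries, with adjusted p still at 1.0. This was 1 of 10 members, against 3.7% of all genes. In the fit of mouse means 0 of 10 members were called, against 0.00604% of all genes, and groups that do not overlap were found for Pkp4 alone, against 6.35%.

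**Figure D4:**
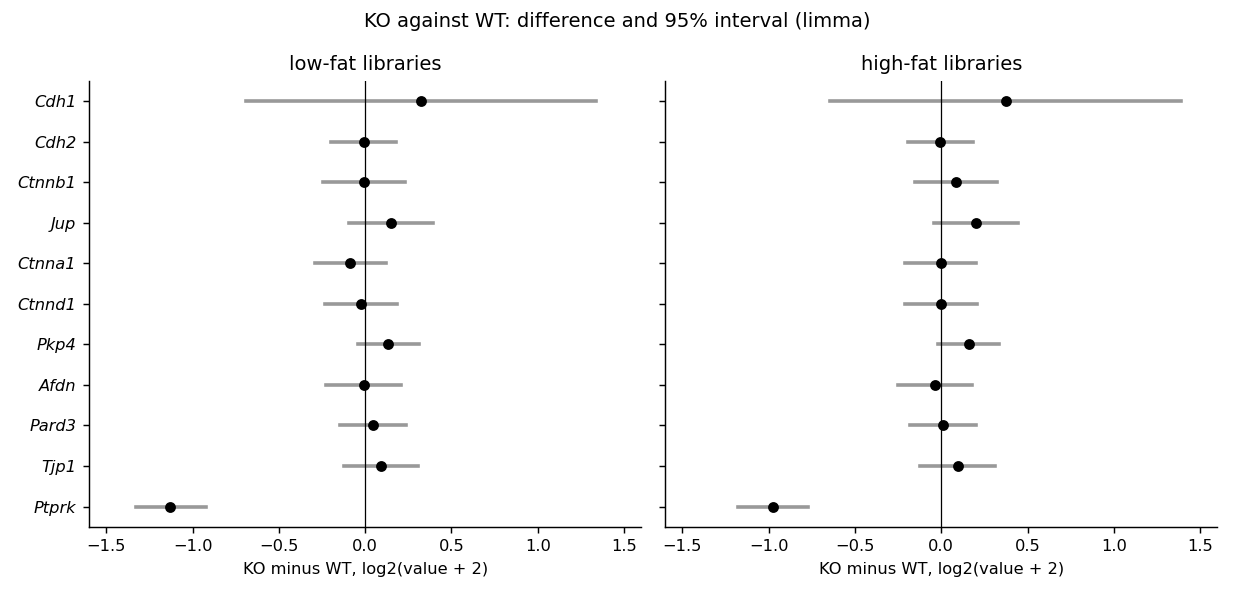
KO minus WT difference on the log2(value + 2) scale (horizontal axis) for the 10 genes and Ptprk in low-fat (left) and high-fat (right) libraries, with points for the estimates and bars for 95% intervals from limma. The bars of all 10 junction genes cross 0, that of Cdh1 is the widest, and that of Ptprk lies below 0.

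The difference between fractions was also compared between the genotypes. The interaction of genotype and fraction, which is the KO difference between high-fat and low-fat minus the WT difference, ran from -0.0346 for Pard3 to 0.0929 for Ctnnb1 on the log2 scale. For Cdh1 it was 0.049 (SE 0.658, or 0.197 with the mouse as a block). None of the 10 passed, with limma adjusted p of 1.0 for each, and 0 of 10 had an unadjusted p under 0.05 with or without the block. Of all 16563 genes, 0 were called and 24 (0.145%) had an unadjusted p under 0.05, or 0.386% with the block. For Cdh1 the mean log2 difference between fractions of a mouse was -1.01 ± 0.23 for WT and -0.96 ± 0.38 for KO mice (SD, n = 3 each).

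Genes of the liver lobule axis differed between the same fractions. The 12 periportal hepatocyte genes, among them Hal and Gls2 of amino acid breakdown, all had log2 differences below 0 between high-fat and low-fat, with a median of -0.572. Of these, 6 of 12 were called lower without the block, against 0.773% of all genes, and 9 of 12 with it, against 3.8%. In 6 of 6 mice 11 of 12 were lower, against 11.7% of all genes. Gls2 measured 14422 in WT low-fat and 9153 in WT high-fat on average, and 14714 and 9890 in KO. Aldh1b1 was put on this list with its decrease in these libraries already known, so it is not independent. The 16 targets of beta-catenin in hepatocytes around the central vein all had differences above 0 (median 0.715), with 7 of 16 called higher without the block, against 4.99% of all genes, and 11 of 16 with it, against 6.65%.

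Cyp2e1, a pericentral drug-metabolising enzyme and target of beta-catenin, averaged 36978 in WT low-fat and 62660 in WT high-fat libraries, and 37289 and 63453 in KO. Ctnnb1 transcripts themselves did not pass in this comparison, as given above. The part of a shift along the lobule in the Cdh1 difference was not tested. Between genotypes, 0 of the 16 targets were called in either fraction, against 0.00604% of all genes in each. Their medians were -0.398 in low-fat and -0.296 in high-fat libraries, against 0.001 and 0.003 over all genes.

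**Figure D5:**
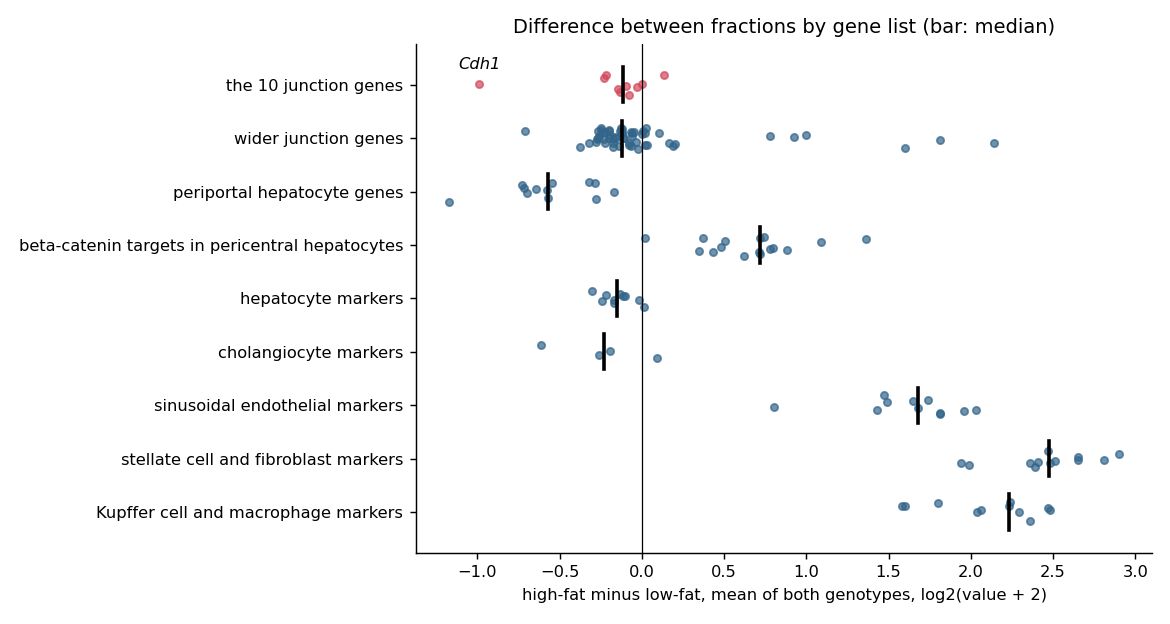
Log2 change between high-fat and low-fat libraries, over both genotypes (horizontal axis, log2(value + 2) scale), with a point for each tested gene of a list and a bar for its median. Red points are the 10 junction genes, of which Cdh1 lies lowest. The periportal genes lie below 0 and the pericentral targets above it, and the endothelial, Kupffer and stellate cell markers have the highest medians.

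Around the 10 members, a wider set of junction genes was examined. Of 65 listed nectins, tight junction, polarity, desmosome and gap junction genes, 64 were in the table and 56 were tested. Between high-fat and low-fat libraries over both genotypes, 4 of 56 were called higher and 2 lower without the block, against 4.99 and 0.773% of all genes. With the block 5 were called higher and 7 lower, against 6.65 and 3.8% of all genes. In 6 of 6 mice 7 of 56 were higher and 15 lower, against 9.74 and 11.7%. The log2 difference was above 0 for 15 and below 0 for 41. Its median was -0.120, against -0.042 over all genes and -0.151 over the hepatocyte markers.

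The genes called higher were Cdh5, encoding the cadherin of endothelial cells, Cldn5, the claudin of endothelial tight junctions, Jam2, a junctional adhesion molecule, and Gja1, encoding connexin 43. Cdh5 averaged 187.0 in WT low-fat and 758.0 in WT high-fat libraries, and 124.0 and 530.7 in KO, with a log2 change of 1.81 (limma adjusted p = 0.00609). Gja1 averaged 20.7 and 102.0 in WT and 12 and 82.0 in KO, with a log2 change of 2.14 (adjusted p = 0.00285). These levels were higher in the same fraction as the endothelial and stellate marker sums given above, and Cdh5 is itself on the endothelial list. The part of other cells in these changes was not tested. With the block Cldn2, a pore-forming claudin, was also called higher, with a log2 change of 0.777 (adjusted p = 0.00854).

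The genes called lower without the block were F11r, encoding JAM-A, with a log2 change of -0.379 (adjusted p = 0.030), and Cldn12, a claudin, with -0.264 (adjusted p = 0.0456). F11r averaged 1418 in WT low-fat and 1123 in WT high-fat libraries, and 1557 and 1299 in KO. Leaving out single libraries gave adjusted p from 0.0108 to 0.0793 for F11r and from 0.0264 to 0.119 for Cldn12, so neither call held in all 12 cases. The call of F11r held without WT low-fat replicate 1, WT high-fat replicate 3, KO low-fat replicate 2 or KO high-fat replicate 3, and that of Cldn12 without WT high-fat replicate 3 or KO low-fat replicate 2. The call of Cldn12 also ended on the deposited scaling (adjusted p = 0.0997, or 0.0783 with the block) and without the filter on low values (0.0745). With the block Nectin3, Ocln (occludin), Marveld2 (tricellulin), Llgl2 and Gjb2 (connexin 26) were also called lower, with log2 changes from -0.236 to -0.321 and adjusted p from 0.0333 to 0.0499. None of these 5 was called without the block, where Ocln had adjusted p = 0.665. Under the block, Ocln, Marveld2 and Llgl2 kept the call only without KO replicate 2, with adjusted p up to 0.153, 0.113 and 0.196 without other mice, and lost it on the deposited scaling. Nectin3 and Gjb2 kept it only without KO replicate 1 or 2, with adjusted p up to 0.147 and 0.196. Within single genotypes, Gja1 was called in KO (log2 change 2.40, adjusted p = 0.0336) and with the block in WT (1.89, adjusted p = 0.0483), and Cdh5 with the block in KO (1.91, adjusted p = 0.0385). The difference of Iqgap1, a scaffold that binds actin and cadherin complexes, was 1.06 in WT and did not pass.

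Between KO and WT, 0 of 56 wider junction genes were called in either fraction, against 0.00604% of all genes in each. Among those with a mean of at least 100, the largest log2 differences were those of Jam2 at -0.773 in low-fat and -0.719 in high-fat libraries, Cdh5 at -0.596 in low-fat and Marveld2 at 0.487 in high-fat libraries, each with limma adjusted p = 1.0. All 11 sinusoidal endothelial markers were below 0 in KO minus WT in both fractions, with medians of -0.669 and -0.466. None of these markers was called, against 0.00604% of all genes in each fraction.

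Across the 12 libraries, the genes whose log2 levels were most like those of Cdh1 were Ly6e (Pearson r = 0.957), Pi4k2a (0.946) and Dtnb (0.943), among 10516 genes compared. Ly6e ranged only from 2738 to 4608 reads per 20 M, so it followed the order of Cdh1 over a smaller span. After the group means were removed, r was 0.919, 0.919 and 0.893. The genes were picked for their r over these same libraries, so these values are not independent of that choice. Among the genes most alike to Cdh2 were AC152827.2 (r = 0.915) and Lhpp (0.912). These correlations are descriptions over 12 libraries that come from only 6 mice.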

How the data were processed

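PolyA RNA from hepatocyte fractions of 6 mice was sequenced in 12 libraries, per the labels. The table holds a score: deposited gene read counts that the authors scaled to 20 M per library and rounded up, as read from the values (every column sums to 20.01 M). Aligner, counter, annotation and strandedness are not given in the sources used here, and the submitters' processing notes name build mm9, although 52403 of 52636 gene identifiers were in GENCODE M21, whose exon lengths gave the levels per kb.

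Genes with at least 10 in at least 3 libraries were kept (16563). Values were rescaled by trimmed mean of M values and tested as log2(value + 2) with limma 3.58.1 (R 4.3.3) in one fit of 4 group means, with a trended variance. P-values were adjusted by Benjamini-Hochberg over all tested genes and called below 0.05. Fold changes of low genes are understated on this scale. The script was tested on simulated data. P-values of the fit of 4 group means measure the spread between libraries, with both libraries of a mouse treated as independent. For comparisons of fractions with the mouse as a block, they measure the spread of the differences within mice. KO and WT over both fractions were also compared on 6 mouse means, where p-values measure the spread between mice. The comparisons share libraries and are not independent.

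In the added fit, called the replicate block, the mouse was a term for comparisons of fractions, because the labels name the mouse of each library. Deviations from group means of the same mouse correlated at 0.516 on average in WT (0.471 to 0.581) and 0.162 in KO (-0.012 to 0.458). For KO against WT the replicate number was the term. Same-numbered deviations correlated at 0.252 to 0.397 in low-fat and -0.173 to 0.49 in high-fat libraries, although the mice differ.

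The members and lists were chosen with earlier results of these data known. Besides the 10 members and Ptprk, genes were named from the wider junction list where called with or without the block, or where among the 2 largest differences of a comparison within a genotype or fraction at a mean of at least 100, and as the 3 genes most correlated with Cdh1 and Cdh2, of which 1 is not reported here. Genes named from the periportal, beta-catenin target and cadherin regulator lists were chosen after their values were seen. Alternatives were other scalings, pseudocounts and filters, other choices of the libraries fitted, the block, a same-mouse correlation (0.351) and leaving out libraries or mice.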

Additional observations from a re-analysis of the deposited data

How the results depend on the processing

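The counts of members called between KO and WT (in low-fat, in high-fat and in mouse means) and for the interaction stayed at 0 under every alternative run. Between fractions, with the replicate block, that is the mouse as a term, 1 member was called in WT and 1 in KO (Cdh1, against 0 without it), and 3 over both genotypes (Cdh1, Jup and Pkp4, against 1). A same-mouse correlation in place of the block also gave 3 over both genotypes, but 0 in WT and 0 in KO, where Cdh1 had adjusted p = 0.135 and 0.178. Of all 16563 genes, the same-mouse correlation called 1913 over both genotypes, 383 in WT and 528 in KO. The block called 1731, 169 and 354 in the same order, and the fit without it 954, 0 and 148. The block combined with the deposited scaling or with median of ratios, and the block without single mice, were added after seeing the data. With the deposited scaling the block gave 1 in WT, 1 in KO and 2 over both genotypes (Cdh1 lower and Cdh2 higher, with Jup and Pkp4 no longer called). With median of ratios it gave 0 in WT, where Cdh1 was no longer called, 1 in KO and 3 over both. Of all genes, the deposited scaling with the block called 173, 352 and 1521. Median of ratios with the block called 291 in KO and 1670 over both genotypes. Without the filter on low values 0 members were called over both genotypes, against 947 of all genes then tested. Leaving out single libraries gave 0 to 1 member. Over both genotypes, such runs with 0 members called 606 to 874 of all genes. Under the block, leaving out single mice gave 0 in WT, 0 to 1 in KO and 1 to 3 over both genotypes. Of all genes, 309 were called in KO without KO replicate 1 and 293 without KO replicate 2, with 1 member in each case. Over both genotypes, leaving out these mice called 1632 and 2951 of all genes, with 2 and 3 members. The cause of these shifts was not tested.

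Directions turned for values near 0. Afdn between fractions was 0.0471 on the deposited scaling with and without the block, and ran from -0.0692 to 0.00674 without single libraries. Pard3 was 0.0747 on the deposited scaling and 0.0187 by median of ratios, in each case also with the block. It ran from -0.0285 to 0.0264 without single libraries and from -0.041 to 0.0316 without single mice under the block, where it was 0.0257 without WT replicate 1. Cdh1 between KO and WT in low-fat libraries ran from -0.0409 to 0.801 without single libraries. Ptprk in the high-fat fraction was not called when only the compared libraries were fitted (adjusted p = 0.469) or without KO high-fat replicate 1 (0.0777), with log2 changes of -0.977 and -0.922. The block changed no other call of a member.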

Other observations

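Of 14 genes on a list of regulators linked to cadherin genes, 9 were tested. These genes were chosen for naming after their values were seen. Zeb2, a repressor of Cdh1 in epithelial cells, averaged 71.7 reads per 20 M in WT low-fat and 312.3 in WT high-fat libraries, and 70.0 and 282.0 in KO. Its log2 change over both genotypes was 1.99 (SE 0.371, limma adjusted p = 0.00985), with higher values in high-fat cells in 6 of 6 mice. Twist1 was also called higher (1.34, adjusted p = 0.030), but averaged only 4.3 and 12.3 in WT and 1.7 and 10.3 in KO. Zeb1 had a difference of 0.185 (adjusted p = 0.422), higher in 6 of 6 mice. Of the 9, 2 were called higher and 0 lower over both genotypes without the block, against 4.99 and 0.773% of all genes. With the block 3 were called higher and 1 lower, against 6.65 and 3.8% of all genes. In 6 of 6 mice 4 of the 9 were higher and 2 lower, against 9.74 and 11.7%.

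Hnf4a, a hepatocyte factor, had a log2 change of -0.304 that passed only with the mouse as a block (adjusted p = 0.0419, against 0.193 without). Klf4 rose with the block (1.20, adjusted p = 0.0297, against 0.132 without). Foxa1, Foxa2, Esrp2 and Snai2 passed neither fit, and Snai1, Snai3, Twist2, Grhl2 and Ovol1 were below the filter. None of the 9 was called between KO and WT in either fraction, against 0.00604% of all genes in each. Zeb2, Twist1 and Klf4 had log2 changes above 0 between the fractions, and the endothelial, stellate and Kupffer cell marker sums were also higher in high-fat libraries. Whether these genes follow the sums from library to library, and the part of those cells, was not tested.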
